A study of Homo sapiens with 4 samples.

Results

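Cholesterol and fatty acid synthesis were described in QGP-1 cells through 30 of 19090 genes named on the array. The members were 31 genes listed by name, and every probe carrying one of those symbols in the platform's probe table was taken, which gave 42 of 28264 probes. FDFT1, squalene synthase, was not analysed here. QGP-1 is an established human pancreatic neuroendocrine tumour line. One group of cells received medium conditioned by pancreatic stellate cells, fibroblast-like cells that lay down matrix in the pancreas (PSC medium), and the other group was mock treated. Both groups were kept for 24 h in RPMI-1640 with 0.1% fetal bovine serum, and each was measured on 2 one-colour arrays. Nothing in the labels ties the 2 arrays of a condition to separate cultures, and p-values therefore measure the spread between these arrays, which may be technical.

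Cells build cholesterol from acetyl-CoA by way of mevalonate, squalene and lanosterol, and they build fatty acids from acetyl-CoA by way of malonyl-CoA. Most enzymes of both routes are transcribed under the sterol regulatory element-binding proteins (SREBPs), membrane-bound factors encoded by SREBF1 and SREBF2. SCAP escorts SREBPs out of the endoplasmic reticulum when sterol is low, INSIG proteins hold them back when sterol is high, and proteases in the Golgi then free the active factor. In this account the members are split into 17 sterol synthesis genes, 5 control and sterol transport genes, and 8 fatty acid synthesis genes.

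SREBPs act at promoters with the nearby factors NF-Y, which binds the CCAAT box, and SP1, which binds the GC box. The 250 bases before the transcription start were searched on both strands for TCACNCCAC (a sterol regulatory element, SRE), TCACGTGA (an E-box that SREBPs can bind), CCAAT and GGGCGG. Of the 31 listed genes, 27 had an entry in RefSeq's promoter table (GRCh38.p14). The promoters of LSS, SREBF2, INSIG1 and HMGCS1 are shown because LSS had the only call in the list, SREBF2 had the largest difference in the opposite direction and the only SRE match, INSIG1 had the only E-box match, and HMGCS1 makes HMG-CoA, the precursor of mevalonate. Capitals mark SRE, E-box and CCAAT matches on either strand, so that ATTGG is a CCAAT box read from the other strand. The LSS window is chr21:46228775-46229024, minus strand. The SREBF2 window is chr22:41832855-41833104, plus strand. The INSIG1 window is chr7:155297628-155297877, plus strand. The HMGCS1 window is chr5:43313413-43313662, minus strand, and belongs to 1 of 2 annotated starts.
LSS: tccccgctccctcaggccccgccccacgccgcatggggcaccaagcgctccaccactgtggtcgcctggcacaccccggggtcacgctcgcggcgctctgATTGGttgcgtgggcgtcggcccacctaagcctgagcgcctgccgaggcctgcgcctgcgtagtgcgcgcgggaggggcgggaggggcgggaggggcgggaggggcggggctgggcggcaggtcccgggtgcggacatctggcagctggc
SREBF2: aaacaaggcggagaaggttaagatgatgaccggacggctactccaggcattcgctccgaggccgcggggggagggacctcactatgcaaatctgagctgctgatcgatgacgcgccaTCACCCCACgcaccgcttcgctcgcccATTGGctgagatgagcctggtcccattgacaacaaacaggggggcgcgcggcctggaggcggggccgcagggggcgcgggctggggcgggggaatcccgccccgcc
INSIG1: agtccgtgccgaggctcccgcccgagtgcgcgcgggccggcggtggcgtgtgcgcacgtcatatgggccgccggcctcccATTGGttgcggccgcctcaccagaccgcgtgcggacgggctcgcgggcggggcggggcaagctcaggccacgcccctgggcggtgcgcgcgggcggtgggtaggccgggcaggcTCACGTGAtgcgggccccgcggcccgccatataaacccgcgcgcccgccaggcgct
HMGCS1: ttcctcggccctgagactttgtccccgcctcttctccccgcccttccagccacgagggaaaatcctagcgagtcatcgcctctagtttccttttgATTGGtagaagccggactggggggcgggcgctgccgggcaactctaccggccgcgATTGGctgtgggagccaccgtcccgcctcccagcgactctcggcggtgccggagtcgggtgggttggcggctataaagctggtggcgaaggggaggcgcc

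The SREBF2 window held the SRE match TCACCCCAC beginning 133 bases before the start, with a CCAAT box beginning 106 bases before it. The LSS window held a CCAAT box beginning 150 bases before the start and 6 GC boxes. The E-box of INSIG1 began 56 bases before the start. An SRE match was present in 1 of 27 members (3.70%) and in 1.19% of the 15159 array genes with a promoter entry. The E-box was found in 1 of 27 members (3.70%) and in 1.54% of array genes. A CCAAT box was present in 20 of 27 members (74.1%) and in 40.2% of array genes, and a GC box in 26 of 27 (96.3%) and in 62.6%. A gene was counted if any of its annotated starts had the match, and the 27 members had 37 starts. No share was computed for genes of like level. A match is a run of letters and does not show binding in these cells.

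Probes of this pathway were bright: 28 of the 30 members lay above the median gene level and 24 above the 75th percentile. Median deposited intensity was 800 and 822 on PSC medium arrays 1 and 2, and 662 and 829 on mock arrays 1 and 2, and intensities were quantile normalized before any comparison. All levels below are normalized log2 intensities of a gene's brightest probe. Neuroendocrine markers were expressed: 9 of 10 measured, all but SYP, lay above the median gene level. Their summed normalized intensity was 711768 to 738160 in PSC medium cells and 756095 to 778829 in mock cells. The brightest markers weigh most in that sum and differed in sign, with SST at -0.45 and SCG2 at 0.36, so it does not describe the list. Of these 10 markers, 6 had a negative and 4 a positive log2 fold change (median -0.09). Of 13 stellate cell and fibroblast markers, 2 lay above the median level (COL1A1 and SPARC), 6 lay under the 25th percentile (COL1A2, COL3A1, DCN, LUM, POSTN and THY1), and 1 had an intensity of 0 or less on an array. Their summed normalized intensity was 17461 to 19266 in PSC medium cells and 13795 to 16419 in mock cells. Most of that sum came from SPARC, so it does not describe the list. Of the 13 markers, 7 had a negative and 6 a positive log2 fold change (median -0.01), beside 51.7% of all genes negative. The part of these markers in the results was not tested.

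LSS, which folds squalene epoxide into lanosterol, the first sterol of the route, fell with PSC medium. Its deposited intensity was 14890 and 11965 on PSC medium arrays 1 and 2, against 25014 and 39102 on mock arrays 1 and 2. After normalization its level was 13.81 and 13.55 in PSC medium cells, against 14.84 and 15.13 in mock cells. Both PSC medium arrays lay below both mock arrays by more than the spread within either pair. The log2 fold change was -1.31 ± 0.19 SE (n = 2 per group, adjusted p = 0.0384 by limma over all genes), with the mock level 2.47 times the PSC medium level. A second LSS probe read 6.16 and 6.16 in PSC medium cells, against 6.26 and 6.29 in mock cells (-0.11 ± 0.14), at the 11.7th percentile of probe levels. Each array measured the RNA of whole cultures, so less LSS RNA per cell and fewer cells with LSS RNA cannot be told apart.

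The LSS call stood alone: in limma 1 of 30 members passed the adjusted threshold of 0.05 as lower and 0 as higher, while 2.14% of all genes passed, 0.974% as lower and 1.17% as higher. Among genes above the 75th percentile of level, 0.943% passed as lower. It also depended on the setting. LSS missed the threshold without normalization (adjusted p = 0.226), with median centring (0.111), with its probes averaged (-0.71, 0.0907) and when each array was left out (0.182 to 0.337). It also missed it when all probes, rather than the brightest of each gene, entered the fit (0.0638), and in that fit 0 of 42 member probes passed, against 0.633% of all probes (0.248% as lower). At an unadjusted p under 0.05, 10 of the 42 probes were lower, beside 11.8% of all probes. By the same limit 1 was higher, for which the share of all probes is not given here.

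Beyond LSS, most members read lower with PSC medium by amounts that did not pass alone. The log2 fold change was negative for 23 of 30 members (76.7%), for 51.7% of all genes and for 52.7% of the brightest genes, those above the 75th percentile of level. The members' median was -0.32, against -0.01 over all genes and -0.02 over the brightest genes, and it was -0.30 without LSS. Both PSC medium arrays lay below both mock arrays for 14 members (29.0% of all genes, 31.9% of the brightest genes), and above them for 2 members (24.5% of all genes). At an unadjusted p under 0.05, 7 members were lower and 1 higher, beside 12.7% and 9.84% of all genes. The members were chosen with earlier results of these arrays known, so these counts are a description.

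**Figure D1:**
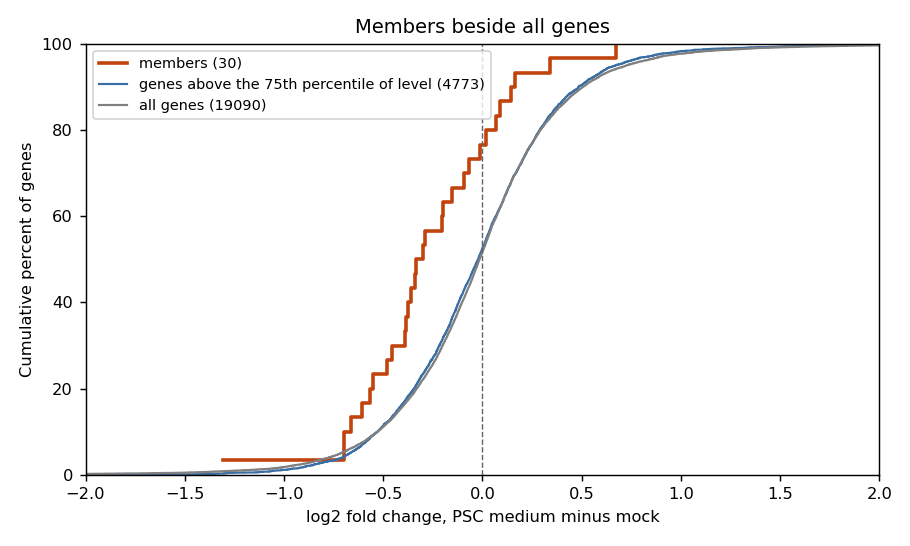
Cumulative percent of genes (vertical axis) by log2 fold change, PSC medium minus mock (horizontal axis), for the 30 members, the 4773 genes above the 75th percentile of level and all 19090 genes. The members' curve lies to the left of both others over most of its range, with 76.7% of members below 0.

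The arrays within a group differed for these genes. Each member's level was set against its mean over the 4 arrays, and the median over members of this deviation was -0.17 and -0.14 on PSC medium arrays 1 and 2, against 0.09 and 0.23 on mock arrays 1 and 2. Mock array 2 held the highest level for 13 of 30 members (43.3%) and for 21.4% of all genes. PSC medium array 2 held the lowest for 15 members (50%) and for 31% of all genes. The members' median log2 fold change was -0.41 without mock array 1 and -0.19 without mock array 2, the second omission moving it by over 1.5 times. Single members moved further. Leaving out PSC medium array 1 put FASN at -0.04, DHCR7 at -0.11, HSD17B7 at -0.09, TM7SF2 at -0.24 and ACSS2 at -0.18, against -0.54, -0.56, -0.59, -0.67 and -0.54 without PSC medium array 2. Leaving out mock array 2 put INSIG1 at -0.10, STARD4 at -0.20 and FDPS at -0.175, against -0.67, -0.76 and -0.57 without mock array 1.

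**Figure D2:**
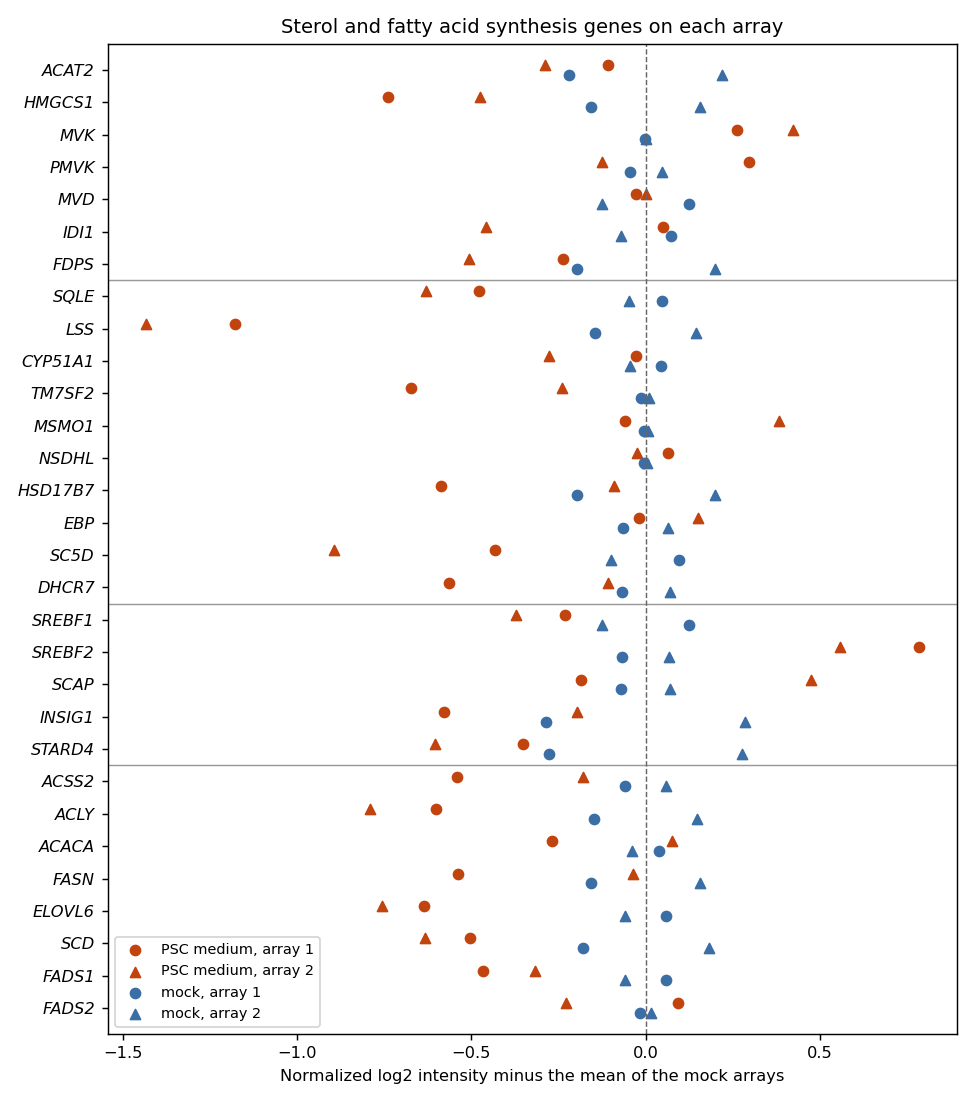
Normalized log2 intensity of each member minus the mean of its mock arrays (horizontal axis), for PSC medium arrays 1 and 2 and mock arrays 1 and 2, in pathway order with lines between the 4 steps. LSS lies farthest to the left on both PSC medium arrays, and SREBF2 lies to the right on both.

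In the steps leading to squalene, 5 of 7 measured members had a negative log2 fold change (median -0.20; 51.7% of all genes were negative), and 0 passed in limma, with 1 lower and 0 higher at an unadjusted p under 0.05, beside 12.7% and 9.84% of all genes. HMGCS1, which joins acetyl-CoA and acetoacetyl-CoA into HMG-CoA, had levels of 14.96 and 15.22 in PSC medium cells, against 15.54 and 15.85 in mock cells. The groups did not overlap, and the log2 fold change was -0.61 ± 0.19 (95% interval -1.08 to -0.14, adjusted p = 0.144). FDPS, which makes farnesyl diphosphate, read 14.64 and 14.37 in PSC medium cells, against 14.68 and 15.07 in mock cells (-0.37 ± 0.21). Its groups did not overlap, but PSC medium array 1 and mock array 1 lay close together.

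MVK, the kinase that acts first on mevalonate, had the opposite sign. It read 9.64 and 9.80 in PSC medium cells, against 9.38 and 9.38 in mock cells (0.34 ± 0.16, adjusted p = 0.268), and lay under the median gene level. The remaining genes of these steps overlapped between groups. ACAT2, which forms acetoacetyl-CoA, read 13.09 and 12.91 in PSC medium cells, against 12.97 and 13.41 in mock cells (-0.20 ± 0.20). IDI1, the isopentenyl diphosphate isomerase, read 15.24 and 14.73 in PSC medium cells, against 15.26 and 15.12 in mock cells (-0.21 ± 0.21). In both genes 1 array of a pair stood away from the other 3, mock array 2 for ACAT2 and PSC medium array 2 for IDI1. PMVK, which adds the next phosphate to mevalonate, had 0.09 ± 0.20 (95% interval -0.39 to 0.57). MVD, which decarboxylates the product to isopentenyl diphosphate, had -0.01 ± 0.17 (95% interval -0.42 to 0.40).

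From squalene to cholesterol, 7 of 10 members had a negative log2 fold change (median -0.34; 51.7% of all genes were negative). Of these LSS passed, and 3, LSS among them, had an unadjusted p under 0.05, beside 12.7% of all genes as lower. SQLE, the squalene epoxidase that makes the substrate of LSS, read 13.80 and 13.65 in PSC medium cells, against 14.32 and 14.23 in mock cells. These pairs stood apart by more than the difference within either (-0.55 ± 0.16, 95% interval -0.94 to -0.16, adjusted p = 0.123). SC5D, a sterol desaturase near the end of the route, read 13.92 and 13.46 in PSC medium cells, against 14.45 and 14.26 in mock cells (-0.66 ± 0.21, adjusted p = 0.145). Its second probe read 11.75 and 11.59 in PSC medium cells, against 12.50 and 12.23 in mock cells (-0.70 ± 0.17), so both probes put the PSC medium arrays lowest.

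TM7SF2, a sterol reductase, read 12.98 and 13.42 in PSC medium cells, against 13.64 and 13.67 in mock cells (-0.46 ± 0.20, adjusted p = 0.242). DHCR7, the reductase that completes cholesterol, read 14.55 and 15.01 in PSC medium cells, against 15.05 and 15.18 in mock cells (-0.34 ± 0.20, adjusted p = 0.386). For both genes the groups did not overlap and PSC medium array 1 was the lowest. CYP51A1, which demethylates lanosterol, read 14.68 and 14.43 in PSC medium cells, against 14.75 and 14.66 in mock cells, with overlap (-0.15 ± 0.17). MSMO1, NSDHL and HSD17B7, which together strip methyl groups from the sterol ring, had log2 fold changes of 0.16 ± 0.20, 0.02 ± 0.15 and -0.34 ± 0.24, all with overlapping groups. EBP, a sterol isomerase, was at 0.07 ± 0.16 (95% interval -0.33 to 0.47). Thus the lower readings were spread unevenly over neighbouring steps, with values near 0 for NSDHL and EBP and -1.31 for LSS.

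**Figure D3:**
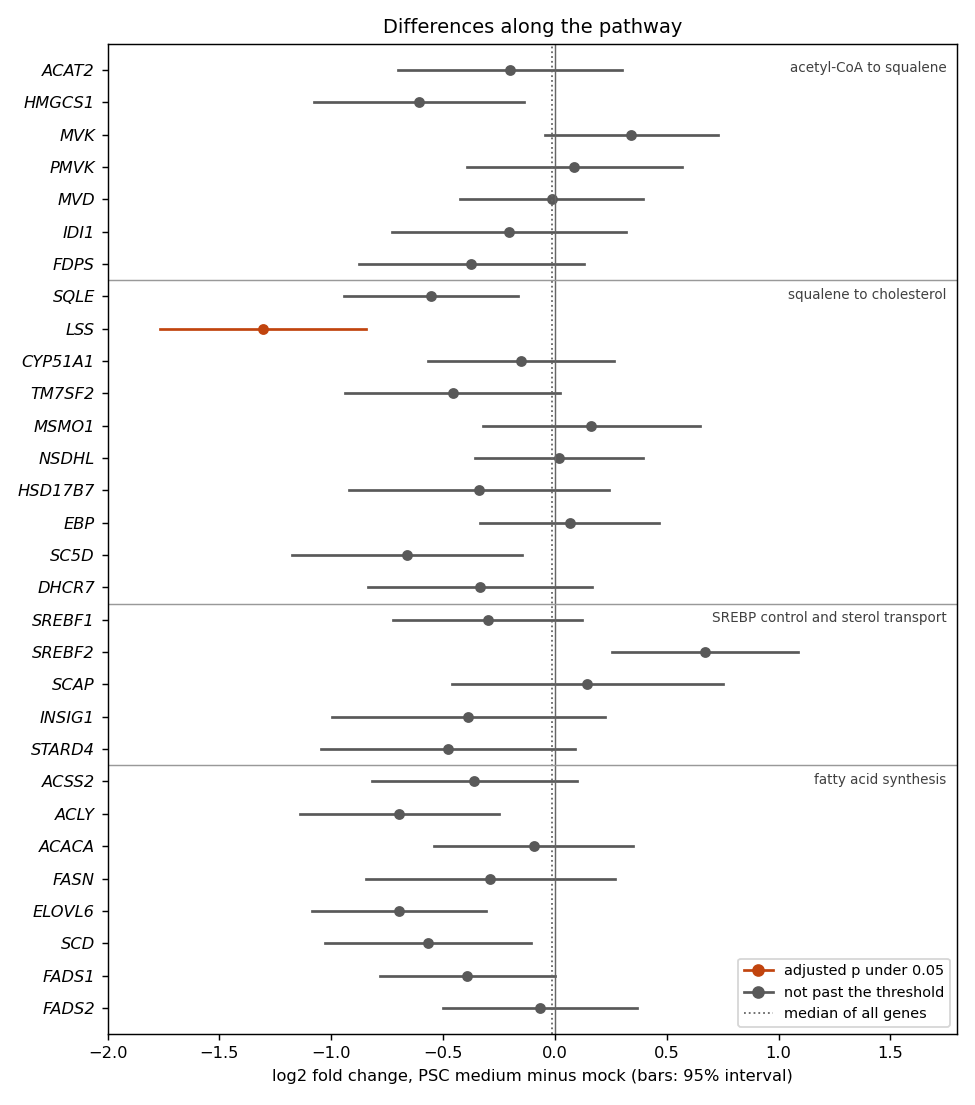
log2 fold change, PSC medium minus mock (horizontal axis), of each member in pathway order, with 95% intervals from the limma fit; the dotted line is the median of all genes. LSS is the only member past the adjusted threshold, and the intervals of HMGCS1, SQLE, SC5D, ACLY, ELOVL6 and SCD lie below 0 while that of SREBF2 lies above 0.

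Among the control genes, SREBF2, which encodes the SREBP that mainly drives sterol synthesis, stood opposite to most of the enzymes. It read 10.81 and 10.59 in PSC medium cells, against 9.96 and 10.10 in mock cells. Both PSC medium arrays were higher than both mock arrays (0.67 ± 0.17, 95% interval 0.26 to 1.09, adjusted p = 0.0977), and the difference missed the threshold. SREBF1, whose products mainly drive fatty acid synthesis, read 14.14 and 14.00 in PSC medium cells, against 14.49 and 14.24 in mock cells (-0.30 ± 0.17, adjusted p = 0.362). A second SREBF1 probe had the opposite sign at 0.11 ± 0.16.

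INSIG1, both a brake on SREBP release and an SREBP target, read 15.22 and 15.60 in PSC medium cells, against 15.51 and 16.08 in mock cells (-0.39 ± 0.25, adjusted p = 0.414). The groups overlapped on this probe. A dimmer INSIG1 probe read 12.21 and 11.99 in PSC medium cells, against 12.73 and 13.20 in mock cells (-0.86 ± 0.21, adjusted p = 0.117 over all probes), and there the groups did not overlap. STARD4, a carrier of cholesterol between membranes, read 8.79 and 8.54 in PSC medium cells, against 8.87 and 9.42 in mock cells (-0.48 ± 0.23, adjusted p = 0.288). SCAP was at 0.15 ± 0.25, with 10.24 and 10.90 in PSC medium cells and 10.35 and 10.49 in mock cells, so its PSC medium arrays enclosed its mock arrays.

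All 8 measured fatty acid synthesis genes had a negative log2 fold change (median -0.38), as did 51.7% of all genes. In limma 0 of the 8 passed, beside 2.14% of all genes, and at an unadjusted p under 0.05, 3 were lower and 0 higher, beside 12.7% and 9.84% of all genes. ACLY, which cleaves citrate into cytosolic acetyl-CoA for both routes, read 15.10 and 14.91 in PSC medium cells, against 15.55 and 15.84 in mock cells (-0.70 ± 0.18, adjusted p = 0.103). ELOVL6, the elongase that extends palmitate, read 12.96 and 12.85 in PSC medium cells, against 13.66 and 13.54 in mock cells. Its pairs were tight and well separated (-0.70 ± 0.16, 95% interval -1.08 to -0.31, adjusted p = 0.0814). SCD, the desaturase that makes monounsaturated fatty acids, read 15.17 and 15.04 in PSC medium cells, against 15.49 and 15.85 in mock cells (-0.57 ± 0.19, adjusted p = 0.155).

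The desaturases of polyunsaturated fatty acids, neighbouring genes on chromosome 11, differed in size. FADS1 read 13.10 and 13.25 in PSC medium cells, against 13.62 and 13.50 in mock cells, without overlap (-0.39 ± 0.16, adjusted p = 0.224). FADS2 read 11.14 and 10.82 in PSC medium cells, against 11.03 and 11.06 in mock cells, with overlap (-0.07 ± 0.18, 95% interval -0.50 to 0.37). The difference between these 2 genes was not tested. ACSS2, which makes acetyl-CoA from acetate, read 11.48 and 11.84 in PSC medium cells, against 11.96 and 12.08 in mock cells (-0.36 ± 0.19).

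ACACA and FASN also had overlapping groups. ACACA, which makes malonyl-CoA, read 14.31 and 14.66 in PSC medium cells, against 14.62 and 14.54 in mock cells (-0.10 ± 0.18). FASN, the fatty acid synthase, read 13.72 and 14.22 in PSC medium cells, against 14.10 and 14.42 in mock cells (-0.29 ± 0.23, 95% interval -0.85 to 0.27). The medians of the sterol and fatty acid branches, -0.21 and -0.38, are descriptions, and the difference between them was not tested. The sterol median was -0.40 without mock array 1 and -0.11 without PSC medium array 2.

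There were 12 members with 2 probes, and the second probe had the same sign for 8 and the opposite sign for 4. The opposite signs were those of ACAT2 (0.34 ± 0.15), FDPS (0.36 ± 0.18), SREBF1 and ACLY (0.18 ± 0.17). The ACLY pair differed most among these 4, since its brightest probe had -0.70 ± 0.18. HSD17B7 differed the other way: its second probe read 13.90 and 13.69 in PSC medium cells, against 14.53 and 14.43 in mock cells (-0.68 ± 0.16, adjusted p = 0.109 over all probes). Second probes of ACSS2, IDI1 and ACACA were at -0.01 ± 0.15, -0.15 ± 0.22 and -0.09 ± 0.16. A second MSMO1 probe was near background, with a deposited intensity of -13 and -7 on PSC medium arrays 1 and 2 and of 20 and 8 on mock arrays 1 and 2. With the probes of each gene averaged, the members' median was -0.18.

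**Figure D4:**
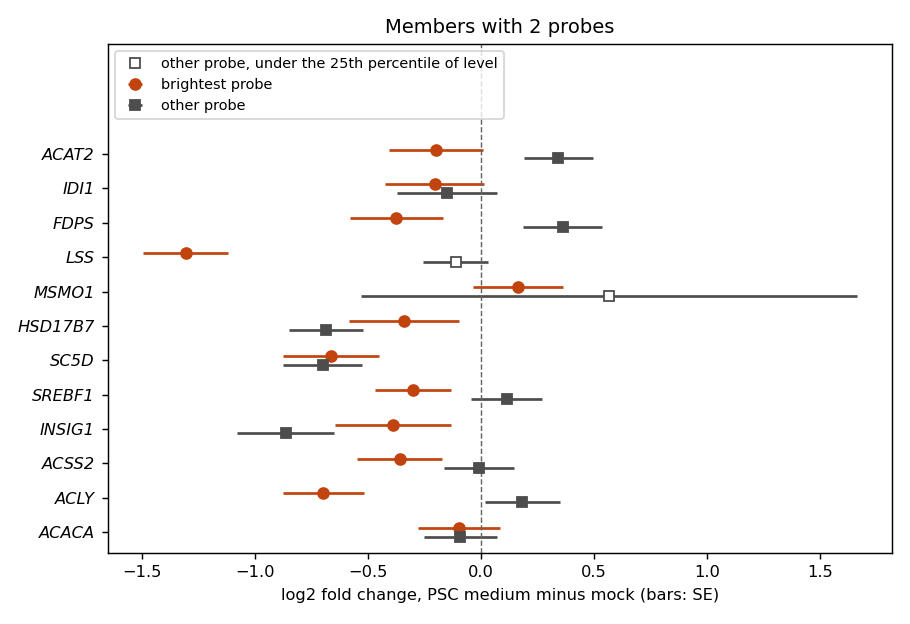
log2 fold change, PSC medium minus mock, with SE (horizontal axis), of the brightest and the other probe of the 12 members with 2 probes, fitted over all probes. The 2 probes lie on opposite sides of 0 for ACAT2, FDPS, SREBF1 and ACLY, and close together for SC5D, IDI1 and ACACA.

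The number of members that passed depended on how dim genes and the variance were handled. With genes under the 25th percentile of level left out, 8 members passed: LSS, ACLY, ELOVL6, SC5D, HMGCS1, SCD and SQLE were lower (7 of 30, beside 10.7% of all genes tested) and SREBF2 was higher (beside 8.93%). The same 8 passed when the variance prior followed intensity and was robust (9.63% of all genes lower, 8.17% higher). With a constant of 50 added before the log, 6 passed, all but HMGCS1 and SCD (6.05% lower, 4.63% higher). The calls over all genes grew in the same settings, to 2811, 3398 and 2038 against 409. The log2 fold changes of these 8 genes kept their sign in all 11 alternatives, which was largely fixed in advance. Dropping dim genes, changing the variance prior or adding the replicate block leaves a gene's fold change as it was. Leaving out an array or adding a constant cannot reverse a gene whose groups do not overlap, as in these 8. Some sizes moved. ACLY ranged from -0.84 to -0.26, the smallest with its probes averaged, LSS from -1.45 to -0.71, SC5D from -0.89 to -0.43 and SCD from -0.75 to -0.39. HMGCS1 ranged from -0.76 to -0.45, ELOVL6 from -0.76 to -0.62, SQLE from -0.63 to -0.47 and SREBF2 from 0.56 to 0.78.

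**Figure D5:**
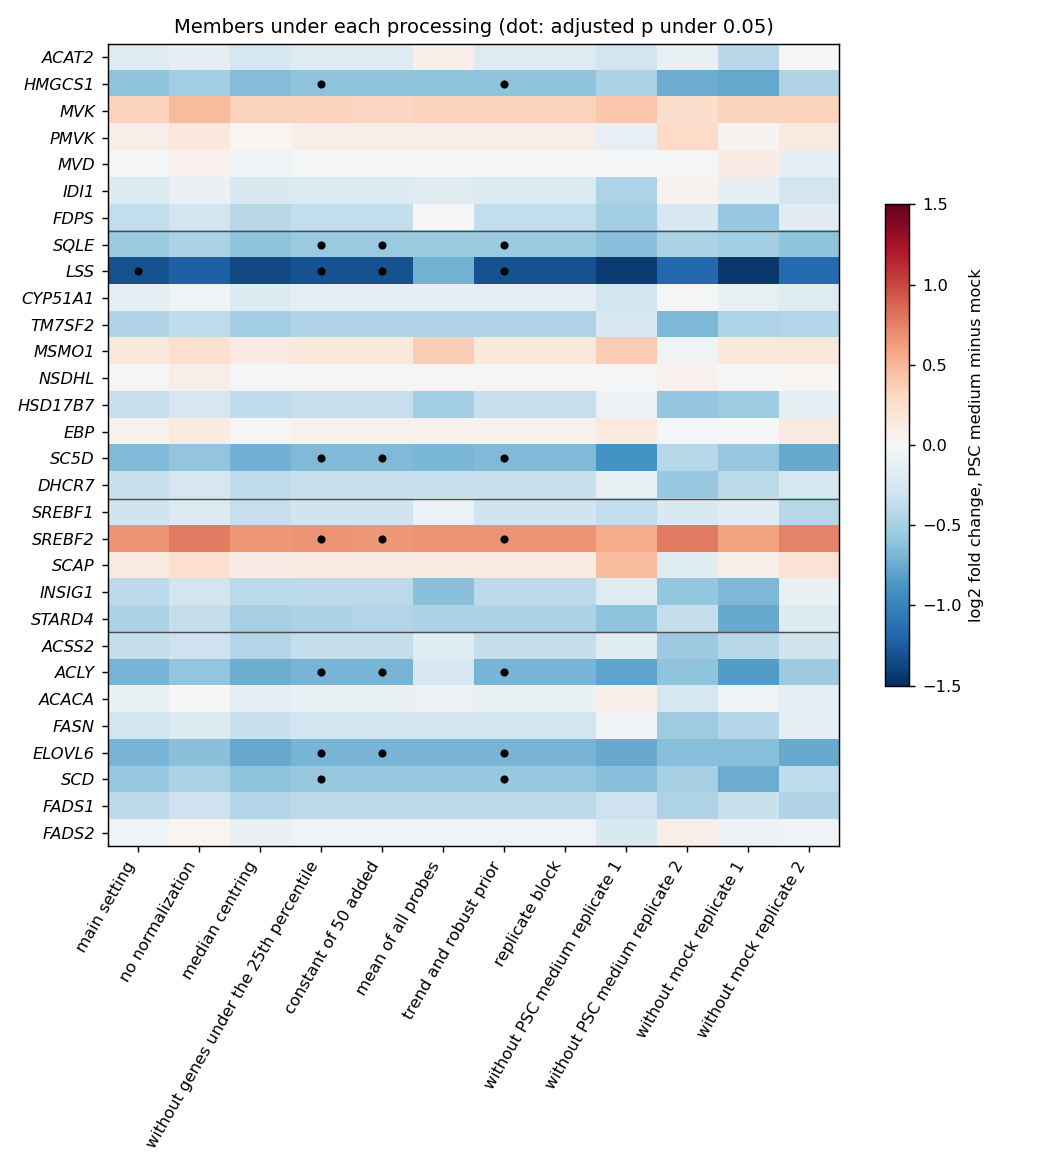
log2 fold change, PSC medium minus mock (colour), of each member (rows, pathway order) under the main setting and 11 alternatives (columns); a dot marks an adjusted p under 0.05. LSS is the only member with a dot in the main setting, and dots for 8 members appear when dim genes are left out or the variance prior follows intensity.

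Genes around these routes were taken from 5 lists, and limma called 0 of 76 measured genes in them, beside 2.14% of all genes. Of 12 genes listed as other SREBP machinery and sterol synthesis targets, 8 had a negative log2 fold change (median -0.35). At an unadjusted p under 0.05, 6 were lower and 0 higher. The list also holds genes that are not sterol synthesis enzymes, with NPC2 and RDH11 among those 6. Over all genes, for this list and the 4 that follow, 51.7% were negative, and 12.7% were lower and 9.84% higher at that p. MBTPS2, the intramembrane protease that frees SREBPs, read 11.08 and 10.92 in PSC medium cells, against 11.66 and 11.70 in mock cells (-0.67 ± 0.16, adjusted p = 0.0862). LBR, a nuclear membrane protein with sterol reductase activity, was at -0.69 ± 0.21 (adjusted p = 0.132) and RDH11, a retinol dehydrogenase, at -0.64 ± 0.21 (adjusted p = 0.152).

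In the non-sterol branches of the mevalonate route the median was 0.10, with 8 of 11 genes positive. At an unadjusted p under 0.05, 2 of them were higher and 1 was lower. PDSS1 and PDSS2, the subunits of the enzyme that builds the ubiquinone tail, had opposite signs, at 0.74 ± 0.20 (adjusted p = 0.114) and -0.50 ± 0.19 (adjusted p = 0.202). DHDDS, of dolichol synthesis, was at 0.46 ± 0.17 (adjusted p = 0.180).

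The list of LXR, efflux and sterol esterification genes had a median of -0.06, with 9 of 13 negative, and 3 lower and 1 higher at an unadjusted p under 0.05. The cholesterol esterification enzymes had opposite signs, SOAT1 at -0.74 ± 0.20 (adjusted p = 0.109) and SOAT2 at 0.68 ± 0.17 (adjusted p = 0.0916). ABCG1, a sterol exporter, was at -0.54 ± 0.19 (adjusted p = 0.177).

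Of 24 other genes of fatty acid synthesis, elongation and activation, 13 were negative (median -0.13), with 5 lower and 2 higher at an unadjusted p under 0.05. ELOVL2, an elongase of polyunsaturated fatty acids, read 7.91 and 8.34 in PSC medium cells, against 9.01 and 9.34 in mock cells (-1.05 ± 0.22, adjusted p = 0.0691). MLXIPL, a glucose-responsive activator of lipogenic genes, was at -0.72 ± 0.19 (adjusted p = 0.102), and ME1, a malic enzyme that supplies NADPH, at 0.55 ± 0.17 (adjusted p = 0.144).

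Fatty acid oxidation, the opposing route, had a median of -0.06, with 10 of 16 genes negative, and 3 lower and 1 higher at an unadjusted p under 0.05. CPT2, which returns fatty acids from carnitine to CoA in mitochondria, read 13.65 and 13.55 in PSC medium cells, against 14.53 and 14.40 in mock cells (-0.87 ± 0.16, adjusted p = 0.0567). ACADM, the medium-chain acyl-CoA dehydrogenase, was at -0.91 ± 0.18 (adjusted p = 0.0672) and CPT1C at -0.63 ± 0.17 (adjusted p = 0.109). These were the lowest p-values of their lists, and none passed in limma.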

How the data were processed

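The authors deposited linear intensities of 28264 probes on 4 arrays, as whole numbers, some of them below 0 after background subtraction; per the labels' protocols, amplified RNA was labelled with Cy5. Scanner, software and genome build are not given in the sources used here. Since the log2 medians of the arrays spanned 0.325, more than the 0.2 allowed for normalized values, intensities were quantile normalized, floored at 1 and log2 transformed. Symbols came from the platform table, updated through Entrez IDs (25893 probes matched, 0 symbols changed). A gene was its brightest probe (19090 genes). The test was that of limma 3.58.1 run in R 4.3.3 (lmFit, eBayes, two-sided, Benjamini-Hochberg over all genes, 0.05, 2 residual degrees of freedom). Every adjusted p comes from limma. Those given for all probes or for an alternative setting come from a refit, adjusted over the probes or genes of that fit. The number of arrays limits precision. Figures used matplotlib 3.10.9.

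On simulated data for 19090 genes, the procedure recovered 60% of 100 genes changed by 1 (log2) and 99% of 100 changed by 2. There were 25 false calls among 18890 unchanged genes. Beside the genes recovered, these false calls were a larger share of all calls than the adjusted threshold aims for. The simulation therefore does not show that the threshold held its error rate. All members and, of each neighbouring list, any gene past the threshold or else the 3 with the smallest p were named. The members and lists were chosen with earlier results of these data known. Alternatives changed the normalization, the handling of dim genes, the constant added, the probes, the variance prior, the replicate number as a block and each array left out.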

Additional observations from a re-analysis of the deposited data

How the results depend on the processing

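The 1 member call gave way to 0 without normalization, with median centring, with averaged probes and with the replicate block, and to 8, 6 and 8 without dim genes, with 50 added and with the trended robust prior. All genes called numbered 113, 91, 93 and 84 in the first 4 of these settings and 2811, 2038 and 3398 in the last 3. Member probes called were 11 of 40, 7 of 42 and 11 of 42 in the last 3, against 0. Of these 10, 6 and 10 were lower, and the share of all probes is not given here for these settings. Neighbouring pathway genes called were 18 of 68, 11 of 76 and 19 of 76, against 0. As lower, 12, 8 and 14 of them passed, beside 10.7%, 6.05% and 9.63% of all genes. As higher, 6, 3 and 5 passed, beside 8.93%, 4.63% and 8.17%. Leaving out each array gave 0 to 0 members, 0 to 36 genes, 0 to 0 member probes and 0 to 1 neighbouring genes; each omission leaves 1 array in a group, assumed to vary like the other group. The members' median was -0.23 without normalization, -0.18 with averaged probes and -0.41 to -0.19 leaving out each array; the sterol branch ranged from -0.40 to -0.11 and the fatty acid branch from -0.52 to -0.27 leaving out each array, and the latter was -0.27 with averaged probes. Members with a negative sign numbered 21 to 24 of 30 over all alternatives. Median centring moved the median of all genes to -0.10.

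LSS kept its sign throughout (-1.45 to -0.71) and missed the threshold in 8 of 11 alternatives. With the replicate block its adjusted p was 0.0766; same-numbered arrays deviated together with a correlation of 0.07 over genes, and the labels do not say that the number marks a shared culture. Of 330 member values over the alternatives, 15 changed sign, in 10 genes whose main values lay between -0.21 and 0.16. Dropping dim genes, changing the variance prior or adding the block leaves a fold change as it was, so no sign could change there. Nor could leaving out an array or adding a constant reverse a gene whose groups do not overlap, such as LSS. ACAT2 was 0.0712 with averaged probes, FADS2 0.033 and MVD 0.0616 without normalization, and NSDHL -0.0347 with median centring. Without a change of sign, leaving out each array moved FASN from -0.54 to -0.04, INSIG1 from -0.67 to -0.10, DHCR7 from -0.56 to -0.11, HSD17B7 from -0.59 to -0.09, STARD4 from -0.76 to -0.20, CYP51A1 from -0.28 to -0.03 and SREBF1 from -0.43 to -0.17. It gave -0.27 to 0.0771 for ACACA, -0.42 to 0.0218 for ACAT2, -0.0179 to 0.15 for EBP, -0.23 to 0.0945 for FADS2, -0.46 to 0.0483 for IDI1, -0.0582 to 0.38 for MSMO1, -0.14 to 0.11 for MVD, -0.0257 to 0.0651 for NSDHL, -0.13 to 0.30 for PMVK and -0.18 to 0.48 for SCAP. The causes of these changes were not tested.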
